A study of Mus musculus with 8 samples.

Results

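The transcripts described here encode the machinery that shortens poly(A) tails, removes mRNA caps and degrades mRNA bodies, measured in mouse spleen. The set comprised 54 gene symbols chosen by function: subunits of the CCR4-NOT and PAN deadenylases and the deadenylase PARN, decapping and 5′-to-3′ decay factors, exosome and SKI subunits, nonsense-mediated decay factors, cytoplasmic poly(A)-binding proteins and the BTG/TOB adaptors. Of these symbols, 53 were found among the 17738 in the expression table, and each was represented by its transcript with the highest mean. The remaining one, Cnot11, was listed under its older symbol D1Bwg0212e and is given separately.

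Total spleen RNA had been sequenced from 8 male C57BL/6 mice aged 8 to 12 weeks, without treatment: 4 wild-type and 4 of the genotype TTPΔARE. Tristetraprolin (TTP), the product of Zfp36, binds AU-rich elements in mRNA 3′ untranslated regions (3′ UTRs), and the TTPΔARE allele lacks the AU-rich element of the Zfp36 mRNA itself. The labels give neither zygosity nor litter, and the allele is a germline one that is not restricted to a cell type. Levels are in FPKM, fragments counted per transcript and scaled by its length and by the size of the library. Differences are TTPΔARE minus wild-type of mean log2(FPKM + 0.5), a scale on which changes of weakly expressed transcripts look smaller than they are, and a transcript was called at a limma adjusted p under 0.05 over 16608 tested transcripts.

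Most mRNAs are degraded after their poly(A) tail has been shortened, mainly by the CCR4-NOT complex and to a lesser extent by PAN2-PAN3. The deadenylated mRNA is then either decapped by DCP2 and digested from its 5′ end by XRN1, or degraded from its 3′ end by the exosome together with the SKI complex. TTP is known to recruit CCR4-NOT to AU-rich mRNAs, and the BTG/TOB proteins bridge the CCR4-NOT deadenylase subunits to the poly(A)-binding protein.

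Zfp36 mRNA was higher in TTPΔARE spleens, and cell markers also differed between the genotypes. Zfp36 measured 37.9, 42.1, 44.9 and 36.4 FPKM in wild-type and 57.5, 46.1, 55.1 and 52.9 FPKM in TTPΔARE spleens, without overlap (log2 0.39, limma adjusted p = 0.0323). The deleted element cannot be read in TTPΔARE samples. The call was lost with either marker covariate described below, at adjusted p values given in the closing section. It was also lost when replicate 1 or 4 of the wild-type or replicate 1, 3 or 4 of the TTPΔARE spleens was left out (limma adjusted p = 0.0665 to 0.108). Summed FPKM of 27 erythroid markers was 6156 to 11368 in wild-type and 14756 to 22616 in TTPΔARE, with 9 called higher, and that of 18 B cell markers was 1515 to 1638 and 1361 to 1445, with 2 called lower. Sums for 21 T cell markers were 362 to 402 and 335 to 384 (0 called by limma), for 15 neutrophil markers 114 to 314 and 163 to 284 (2 higher), and for 15 red pulp macrophage markers 704 to 990 and 897 to 1010 (2 higher). Of 13 pancreas markers 12 stayed under 1 FPKM, and of 9 adipose markers 6 did. In bulk spleen, fewer cells of a type and less RNA per cell cannot be told apart. The depth, estimated from the steps between low values, was 28.3 to 32.2 M fragments, and the member with the fewest fragments, Lsm2 (Sm-like ring subunit), had about 31.2 in its lowest sample.

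One feature of the mRNAs themselves bears on this genotype, the TATTTAT heptamer at the core of sites that TTP is known to bind. It was searched on the transcript strand only in the 3′ UTR of each measured transcript (GENCODE M21 annotation, GRCm38/mm10). At least 1 copy was present in 11 of 53 members (20.8%), against 3283 of 11801 tested symbols (27.8%), with median 3′ UTR lengths of 834 and 995 bases. The following 7 sites are shown because they belong to the members whose values in every spleen are given below, with the heptamer in capitals and written 5′ to 3′ on the transcript strand.
Btg2 (chr1:134077249-134077277, minus strand): aaatgaagagcTATTTATacatgtttttt
Tob2 (chr15:81849860-81849888, minus strand): tatcacctgctTATTTATgtacgaggttg
Dcp1a (chr14:30524318-30524346, plus strand): gccatggtttcTATTTATgcttttatggc
Dcp1b (chr6:119220381-119220409, plus strand): gttctcagagcTATTTATtaatagaatcg
Cnot7 (chr8:40493115-40493143, minus strand): ttttataaacaTATTTATgatgttcttga
Cnot8 (chr11:58118537-58118565, plus strand): cttgtaaatatTATTTATgtttttaattt
Pan3 (chr5:147547930-147547958, plus strand): gctttgttttaTATTTATttttcatttca
The other members with a copy were Cnot3, Dcp2, Edc3 and Lsm6. The Btg2 copy began 103 bases after the stop codon. No copy of these letters was found in the 3′ UTRs of the measured transcripts of Xrn2, Ddx6, Pan2, Parn and Btg1. With the longest annotated 3′ UTR of each gene, the shares were 28.3% of members and 29.8% of tested symbols. A match is a description of sequence, and no binding was measured here.

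Across the whole set, 2 of 53 members fell in TTPΔARE spleens and none rose. The 2 were Xrn2, the nuclear 5′-to-3′ exonuclease, and Btg2, an antiproliferative adaptor of CCR4-NOT. The 2 calls were 3.77% of the members, where 1.99% of all tested transcripts fell and 4.00% were called in either direction. At an unadjusted p under 0.05 there were 11 members (20.8%), against 21.1% of all tested transcripts. Of the 11, 3 were higher (5.66% of the members, against 11.6% of all tested transcripts) and 8 were lower (15.1%, against 9.47%). The genotypes did not overlap for 6 members (11.3%), against 12.5% of all tested transcripts. Of the 6, 1 was higher (1.89%, against 6.53%) and 5 were lower (9.43%, against 5.99%). The counts over both directions were near the background, and the members' share was below it for higher and above it for lower values, a description with no test of the set. The members' differences ran from -0.28 to 0.24 with a median of -0.03, against a median of 0.003 over all tested transcripts, and 36 were negative and 17 positive (67.9% negative, against 49.0% of all tested transcripts). Their median absolute difference was 0.082, against 0.091 for all tested transcripts, and their median SE was 0.070.

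**Figure D1:**
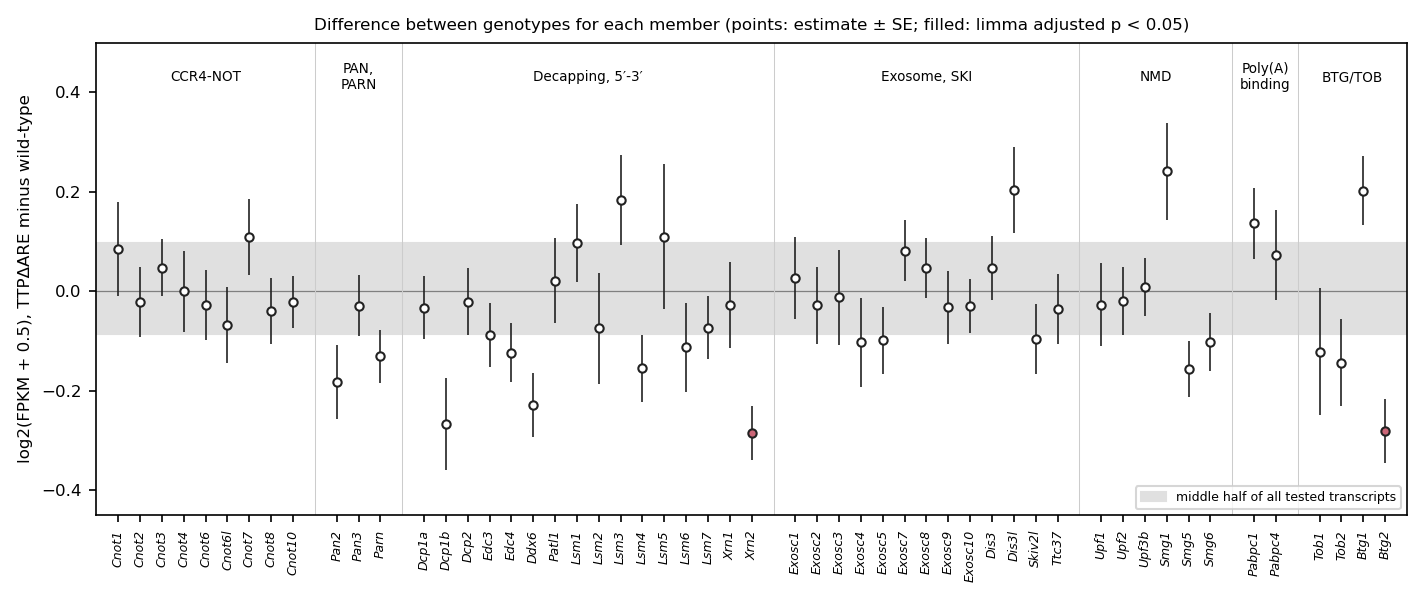
Difference between genotypes for each of the 53 members, grouped by complex; the y axis is log2(FPKM + 0.5), TTPΔARE minus wild-type, points are estimates with SE bars, and the grey band spans the interquartile range of all tested transcripts (-0.08 to 0.10). The filled points, Xrn2 and Btg2, are the only members past the limma threshold.

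The levels of the machinery spanned a wide range per length. Pabpc1 alone took 24.6% of the members' summed mean of 844.7 FPKM, at a mean of 207.7 FPKM over the 8 spleens. It was followed by Btg1 (53.6 FPKM), Btg2 (40.7 FPKM), Xrn2 (28.5 FPKM) and Smg1 (26.5 FPKM). The lowest were Cnot4 (1.50 FPKM), Dis3l (1.64 FPKM) and Lsm2 (1.70 FPKM), and the median member stood at 9.74 FPKM. These levels are those of the highest-mean transcript, and Cnot4, Dis3l and Lsm2 have 5, 3 and 4 transcripts in the table. Genes with several transcripts may therefore be ranked too low. The lowest member with a single transcript was Lsm1 (2.35 FPKM).

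CCR4-NOT, the main cytoplasmic deadenylase, showed no difference that passed the test. None of its 9 measured members was called or had an unadjusted p under 0.05 in limma, and none separated the genotypes. Over all tested transcripts, 21.1% had such an unadjusted p and 12.5% did not overlap. Their differences ran from -0.07 to 0.11 with a median of -0.02. The scaffold subunit Cnot1, on which the complex assembles, stood at 7.72 ± 1.20 FPKM in wild-type and 8.16 ± 0.399 FPKM in TTPΔARE (SD, n = 4 each). Cnot3, a structural subunit, stood at 18.6 ± 1.09 and 19.3 ± 0.634 FPKM, and Cnot4, a ubiquitin ligase, at 1.50 ± 0.133 and 1.50 ± 0.143 FPKM.

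The catalytic subunits were measured as paralogous pairs. The deadenylase Cnot7 had the largest difference of the complex, with 4.91, 4.13, 4.10 and 3.73 FPKM in wild-type and 4.63, 4.62, 4.59 and 4.42 FPKM in TTPΔARE (log2 0.11, SE 0.0760, limma adjusted p = 0.457). The TTPΔARE values lay inside the wild-type range. Its paralogue Cnot8 measured 18.6, 18.9, 16.7 and 18.9 FPKM in wild-type and 19.5, 16.5, 17.5 and 17.6 FPKM in TTPΔARE (log2 -0.04). By these transcripts Cnot8 exceeded Cnot7 in all 8 spleens, by 4.38 ± 0.567 times in wild-type and 3.90 ± 0.273 times in TTPΔARE. Cnot7 had 3 transcripts in the table, the others at means of 4.06 and 3.51 FPKM, and Cnot8 had 1. In the second pair, Cnot6 measured 22.9, 21.7, 21.0 and 26.1 FPKM in wild-type and 22.3, 23.7, 21.8 and 21.9 FPKM in TTPΔARE (log2 -0.03). Cnot6l measured 15.2, 15.8, 13.3 and 16.8 FPKM and 13.9, 15.8, 14.9 and 13.5 FPKM (log2 -0.07). The Cnot6 to Cnot6l ratio was 1.50 ± 0.090 and 1.55 ± 0.075, and the groups overlapped in both pairs. The other Cnot6l transcript, at a mean of 10.2 FPKM, is not in this ratio. How reads were shared among transcripts of a gene is not known, so neither ratio is one of whole genes. Cnot11, which binds the N-terminal part of CNOT1 together with CNOT10, stood at 5.45 ± 0.223 and 5.76 ± 0.271 FPKM (log2 0.07, SE 0.059, limma adjusted p = 0.524), and Cnot10 at 10.5 ± 0.324 and 10.3 ± 0.300 FPKM.

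The other deadenylases had negative differences in all 3 members, and none passed the adjusted threshold. Of the 3, 2 were lower at an unadjusted p under 0.05 in limma, against 9.47% of all tested transcripts. The same 2 were lower without overlap, against 5.99%. Pan2, the catalytic subunit of PAN2-PAN3, measured 3.86, 3.99, 4.19 and 3.80 FPKM in wild-type and 3.72, 3.77, 3.12 and 3.14 FPKM in TTPΔARE (log2 -0.18, SE 0.0743, limma adjusted p = 0.188). All 4 TTPΔARE values were below all wild-type values, with the nearest ones close together. The nuclease Parn measured 9.87, 9.43, 9.20 and 9.88 FPKM in wild-type and 8.58, 8.45, 9.19 and 8.66 FPKM in TTPΔARE (log2 -0.13, SE 0.0540, limma adjusted p = 0.195). Its groups also did not overlap, but the third TTPΔARE spleen and the third wild-type spleen were nearly equal, and with median-of-ratios scaling they overlapped. Pan3, the regulatory subunit that brings PAN2 to the poly(A) tail, measured 14.9, 17.5, 15.4 and 16.3 FPKM and 16.5, 15.8, 15.5 and 14.9 FPKM (log2 -0.03), with overlap.

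Among the 16 decapping and 5′-to-3′ decay members, 1 fell, 0 rose and 15 did not pass. At an unadjusted p under 0.05 there were 4 (25%), all lower, against 21.1% of all tested transcripts in either direction and 9.47% lower, and the median difference was -0.07. Xrn2, which degrades nuclear RNA from the 5′ end and acts in transcription termination, lies on chromosome 2 at 147012755 to 147078000 (GRCm38/mm10). It measured 31.4, 31.1, 29.7 and 33.1 FPKM in wild-type and 26.2, 26.7, 24.8 and 24.8 FPKM in TTPΔARE, so every TTPΔARE spleen was below every wild-type spleen. The wild-type mean of 31.3 ± 1.43 FPKM and the TTPΔARE mean of 25.6 ± 0.994 FPKM (SD over 4 spleens) gave a 1.22-fold fall (log2 -0.28, SE 0.0551, limma adjusted p = 0.0188). Permuting the genotypes over all 70 assignments gave an exact two-sided p of 0.0286, which is the lowest possible with 4 against 4. Any gene without overlap reaches it, and among the members it was computed only for those called, so it adds no support. Leaving out wild-type replicate 4 (limma adjusted p = 0.0575), TTPΔARE replicate 3 (0.0739) or the fourth TTPΔARE spleen (0.0685) ended the call. With the mean of the erythroid markers as a covariate the difference was -0.21 (limma adjusted p = 0.628), and with that of the B cell markers -0.15 (0.715).

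The cytoplasmic counterpart Xrn1 did not separate the genotypes. It measured 6.31, 6.93, 6.47 and 8.12 FPKM in wild-type and 6.21, 7.63, 6.88 and 6.51 FPKM in TTPΔARE (log2 -0.03, SE 0.0864, limma adjusted p = 0.897). Xrn2 exceeded Xrn1 4.53 ± 0.368 times in wild-type and 3.78 ± 0.320 times in TTPΔARE spleens, with overlapping ratios of 4.08 to 4.97 and 3.50 to 4.22. The difference between the responses of the 2 genes was not tested.

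Ddx6, the RNA helicase that links deadenylation to decapping and translational repression, was lower in TTPΔARE spleens without passing the threshold. It measured 19.8, 21.4, 20.6 and 24.1 FPKM in wild-type and 17.6, 18.5, 18.6 and 18.2 FPKM in TTPΔARE, without overlap (log2 -0.23, SE 0.0648, limma adjusted p = 0.0748). Wild-type spleens were also more spread (SD 1.88) than the TTPΔARE spleens (SD 0.446). With sample weights it passed (limma adjusted p = 0.0462). With the B cell covariate its difference was -0.002, and with the erythroid covariate its difference stayed negative without passing. Ddx6 had 3 transcripts in the table, at -0.20, -0.23 and -0.25, and none of them overlapped between genotypes. These transcripts share most of their sequence and are not independent measurements.

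Of the decapping enzyme and its activators, none passed. Dcp1b, a cofactor of the decapping enzyme, measured 3.49, 3.78, 4.27 and 3.31 FPKM in wild-type and 3.24, 3.35, 2.59 and 2.83 FPKM in TTPΔARE (log2 -0.27, SE 0.0926, limma adjusted p = 0.132). Its highest TTPΔARE value exceeded its lowest wild-type value, so the groups overlapped narrowly. With median-of-ratios scaling Dcp1b, Edc4, Lsm4 and Smg5, each lower, no longer overlapped between genotypes. Its paralogue Dcp1a measured 6.85, 7.51, 7.51 and 8.32 FPKM and 7.53, 7.19, 7.24 and 7.43 FPKM (log2 -0.03), and the Dcp1a to Dcp1b ratio was 2.06 ± 0.323 in wild-type and 2.47 ± 0.291 in TTPΔARE. The catalytic subunit Dcp2 stood at 8.30 ± 0.726 and 8.16 ± 0.311 FPKM. The enhancers of decapping Edc3 and Edc4 stood at log2 -0.09 and -0.12, and the decapping activator Patl1 at 0.02, all with overlap.

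The 7 subunits of the Lsm1-7 ring, which binds the 3′ end of deadenylated mRNA, did not move together. Lsm4 was the most abundant, with 27.9, 23.0, 24.2 and 24.9 FPKM in wild-type and 23.5, 21.1, 21.8 and 23.0 FPKM in TTPΔARE (log2 -0.15, SE 0.0673, limma adjusted p = 0.218). Lsm3 had the most positive difference, 0.18, with 15.8 ± 2.15 and 17.9 ± 0.992 FPKM (limma adjusted p = 0.270), and 3 of the 7 were positive and 4 negative. Lsm5 had the widest wild-type spread, with 17.8 FPKM in replicate 1 against 9.82 to 11.9 FPKM in the other wild-type spleens. All 7 overlapped between genotypes.

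**Figure D2:**
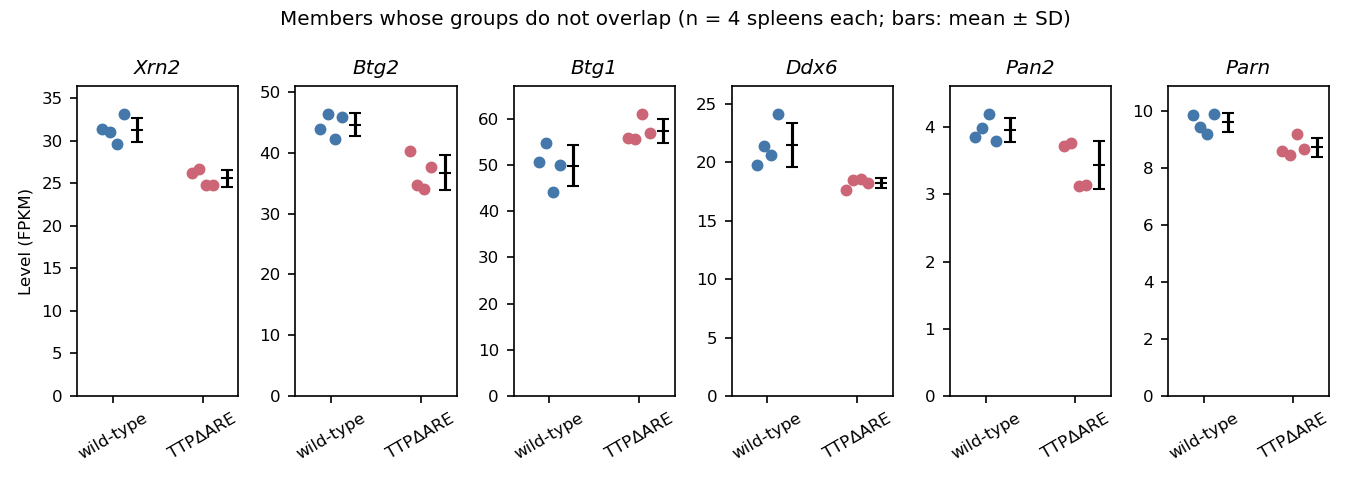
Level in FPKM, on linear axes, of the 6 members whose genotypes did not overlap; each point is 1 spleen (n = 4 per genotype) and bars are the mean ± SD. Pan2, Parn, Ddx6, Xrn2 and Btg2 are lower and Btg1 is higher in TTPΔARE, of these Xrn2 and Btg2 passed the limma threshold, and Parn and Btg1 overlap with median-of-ratios scaling.

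The exosome, which degrades RNA from the 3′ end, and the SKI complex, which feeds cytoplasmic mRNA into it, showed no member past the threshold. The 13 members had a median of -0.03 and a range of -0.10 to 0.20. At an unadjusted p under 0.05 in limma there was 1 (7.69%), against 21.1% of all tested transcripts. The 9 measured Exosc subunits, of the core and its nuclear nuclease, lay between -0.10 and 0.08. Exosc10, the nuclear exonuclease and most abundant of them, measured 19.5, 20.1, 21.7 and 21.4 FPKM in wild-type and 20.4, 20.7, 20.5 and 19.4 FPKM in TTPΔARE (log2 -0.03, SE 0.0543, limma adjusted p = 0.805).

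Of the exosome-associated nucleases, Dis3l, the cytoplasmic one, had the smallest p of the group. It measured 1.28, 1.49, 1.57 and 1.60 FPKM in wild-type and 1.53, 1.86, 2.01 and 1.74 FPKM in TTPΔARE, with overlap (log2 0.20, SE 0.0870, limma adjusted p = 0.211). Its other transcripts stood at 0.15, without overlap, and 0.004. The nuclear Dis3 stood at 5.26 ± 0.414 and 5.44 ± 0.132 FPKM. The SKI helicase Skiv2l stood at 21.0 ± 1.67 and 19.6 ± 1.28 FPKM (log2 -0.10), and the SKI scaffold Ttc37 at 4.90 ± 0.274 and 4.78 ± 0.409 FPKM (log2 -0.03).

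Nonsense-mediated decay, which removes mRNAs with premature stop codons, had 6 measured members and no call, where 4.00% of all tested transcripts were called. The helicase Upf1 stood at 9.24 ± 1.05 and 9.03 ± 0.658 FPKM, and its partners Upf2 and Upf3b at log2 -0.02 and 0.01. Smg1, the kinase that phosphorylates UPF1, measured 20.2, 25.6, 23.5 and 28.0 FPKM in wild-type and 26.0, 32.2, 27.9 and 28.7 FPKM in TTPΔARE, the most positive difference of all members (log2 0.24, SE 0.0973, limma adjusted p = 0.186). Without wild-type replicate 1, its lowest sample, the difference was 0.16. Smg5, which binds phosphorylated UPF1, was lower in each TTPΔARE spleen than the wild-type mean, at 16.4, 15.9, 17.2 and 17.1 FPKM and 15.9, 14.8, 14.4 and 14.4 FPKM (log2 -0.16, SE 0.0556, limma adjusted p = 0.139). The endonuclease Smg6 stood at 8.52 ± 0.524 and 7.90 ± 0.183 FPKM (log2 -0.10).

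The poly(A)-binding proteins, which coat the tail that these enzymes remove, did not pass. Pabpc1 measured 181.3, 196.5, 202.0 and 211.7 FPKM in wild-type and 216.7, 200.0, 232.3 and 221.2 FPKM in TTPΔARE (log2 0.14, SE 0.0712, limma adjusted p = 0.306). All 4 TTPΔARE values were above the wild-type mean, yet the groups overlapped. Pabpc4 measured 7.28, 7.22, 9.33 and 8.89 FPKM and 8.68, 7.64, 9.05 and 9.01 FPKM (log2 0.07), and the Pabpc1 to Pabpc4 ratio was 24.4 ± 2.32 and 25.3 ± 0.729. How reads that match several places were counted is not given in the sources used here, so the level of Pabpc1, which has processed pseudogenes, is uncertain to that extent.

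The BTG/TOB adaptors included the second call, 1 of 4 members (25%), against 4.00% of all tested transcripts called. Btg2 lies on chromosome 1 at 134074865 to 134079155 (GRCm38/mm10) and measured 43.9, 46.3, 42.3 and 45.9 FPKM in wild-type and 40.3, 34.7, 34.1 and 37.7 FPKM in TTPΔARE. All TTPΔARE spleens were below all wild-type spleens, and replicate 1 was the nearest to them. Means were 44.6 ± 1.87 FPKM in wild-type and 36.7 ± 2.87 FPKM in TTPΔARE (SD over 4 spleens). The log2 difference of -0.28 corresponds to a 1.21-fold fall (SE 0.0650, limma adjusted p = 0.0389, exact two-sided permutation p = 0.0286). The call was lost under several alternatives, namely without a filter, with quantile normalization or without a variance trend (limma adjusted p = 0.0503, 0.0556 and 0.0566). It was also lost without any one of wild-type replicates 1, 2 and 4 or TTPΔARE replicates 2, 3 and 4 (0.0568, 0.0844, 0.101, 0.0736, 0.134 and 0.0893), and the difference was -0.23 with the erythroid covariate (0.675) and -0.24 with the B cell covariate (0.634).

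Btg1, the close relative of Btg2, lies on chromosome 10 at 96617001 to 96622813 and stood on the other side. It measured 50.7, 54.7, 44.1 and 50.0 FPKM in wild-type and 55.8, 55.6, 61.0 and 57.0 FPKM in TTPΔARE, without overlap (log2 0.20, SE 0.0697, limma adjusted p = 0.130). With median-of-ratios scaling its groups overlapped. Both genes are known to be expressed in resting lymphocytes. The Btg1 to Btg2 ratio was 1.16, 1.18, 1.04 and 1.09 in wild-type and 1.39, 1.60, 1.79 and 1.51 in TTPΔARE, with means of 1.12 ± 0.063 and 1.57 ± 0.170. Of the 7 paralogue pairs examined, this was the only one whose ratio did not overlap between genotypes, a description with no test.

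Tob1 and Tob2, whose proteins carry a PABPC-binding motif that the BTG proteins lack, did not pass the threshold and overlapped between genotypes. Tob1 measured 5.70, 7.87, 5.65 and 6.15 FPKM in wild-type and 7.23, 4.71, 5.29 and 6.01 FPKM in TTPΔARE (log2 -0.12, SE 0.128, limma adjusted p = 0.645). Tob2 measured 13.5, 16.9, 13.7 and 16.1 FPKM and 15.4, 12.5, 13.2 and 13.1 FPKM (log2 -0.14, SE 0.0875, limma adjusted p = 0.385). The Tob2 to Tob1 ratio was 2.39 ± 0.197 and 2.37 ± 0.249.

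**Figure D3:**
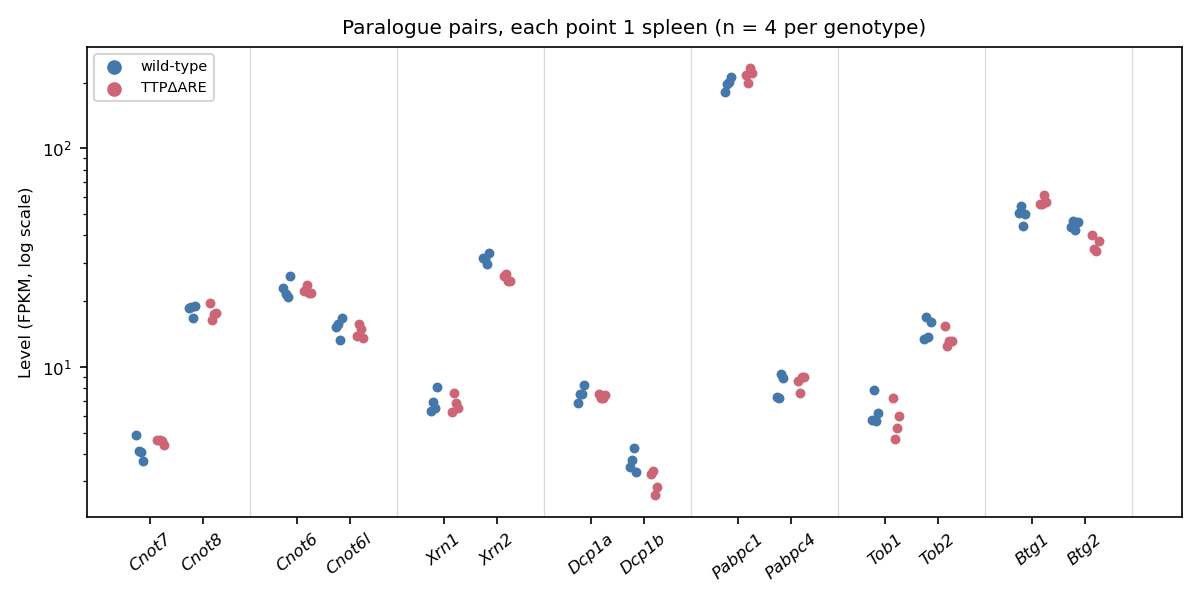
Level in FPKM, on a log axis, of the members of 7 paralogue pairs in each spleen (n = 4 per genotype). Each gene is shown by its transcript with the highest mean. By these transcripts the more abundant member of each pair is the same in both genotypes, and Btg1 and Btg2 separate in opposite directions, though Btg1 overlaps with median-of-ratios scaling.

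Most members had a single transcript in the table. The other 14 had 41 tested transcripts, of which limma called none, against 4.00% of all tested transcripts. Of the 41, 6 had an unadjusted p under 0.05 in limma, against 21.1% of all, and they belonged to Ddx6, Pan2 and Dis3l. For 11 of the 14 genes all transcripts had the same sign, but transcripts of a gene share sequence and are not independent. Pan2 was among the 11, with 3 transcripts at -0.07, -0.18 and -0.19. Members on the chromosome of Zfp36, where sequence linked to the altered allele could differ, were Exosc5 at 2.72 Mb, Cnot3 at 24.7 Mb and Smg1 at 89.8 Mb from it. Exosc5, the nearest, stood at 13.3 ± 0.389 and 12.4 ± 1.09 FPKM (log2 -0.10, limma adjusted p = 0.447).

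Other genes of mRNA decay gave no call. Of 62 listed, including further deadenylases, translational repressors, terminal uridylyltransferases and microRNA silencing factors, 60 were found and 59 tested. Limma called 0 of the 59, against 4.00% of all tested transcripts. At an unadjusted p under 0.05 there were 8 (13.6%, against 21.1% of all tested transcripts), 2 higher and 6 lower, and 3 did not overlap between genotypes (5.08%, against 12.5%), with a median of -0.02. The smallest p values were those of Mphosph6, a nuclear exosome cofactor, which stood at 6.69 ± 0.563 and 5.51 ± 0.311 FPKM (log2 -0.26, limma adjusted p = 0.0709), and Gigyf1, a partner of the translational repressor 4EHP, at 18.9 ± 0.603 and 16.1 ± 1.31 FPKM (log2 -0.23, limma adjusted p = 0.0719). Tnrc6a, which connects microRNA complexes to CCR4-NOT, followed at 19.3 ± 1.95 and 15.9 ± 1.57 FPKM (log2 -0.27, limma adjusted p = 0.117). Noct, a Ccr4-related enzyme listed as Ccrn4l, had nearly the same p but was higher, at 1.36 ± 0.278 and 1.83 ± 0.157 FPKM (log2 0.33, limma adjusted p = 0.117), and is named after its value was seen. The most abundant was Paip2, an inhibitor of poly(A)-binding protein, at 51.2 ± 5.38 and 53.6 ± 5.62 FPKM (log2 0.07).

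**Figure D4:**
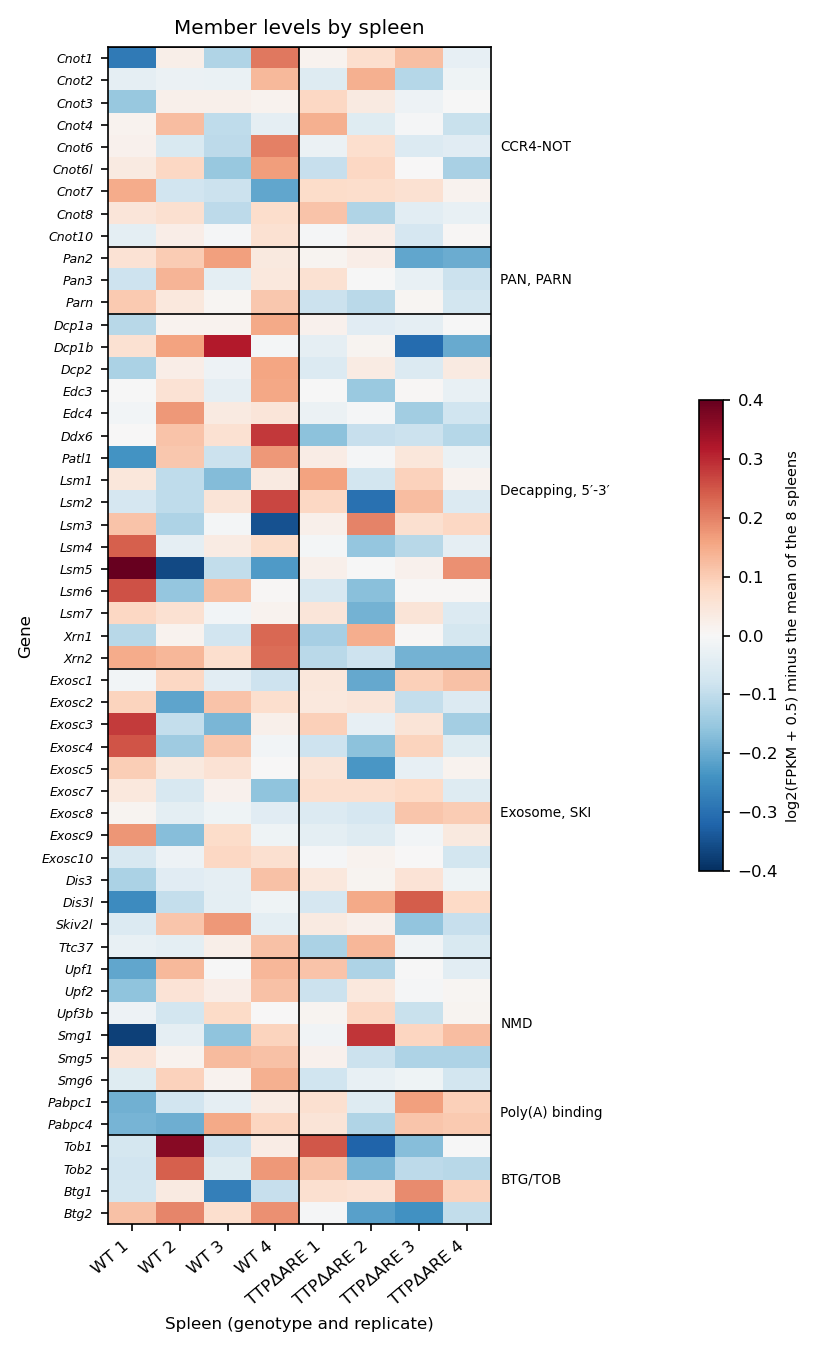
Deviation of each member in each spleen from its mean over the 8 spleens, in log2(FPKM + 0.5), with members in rows by complex, spleens in columns and the colours limited to -0.4 and 0.4. Rows of Xrn2, Ddx6 and Btg2 are lower in the 4 TTPΔARE columns, and wild-type replicates 1 and 4 deviate from the other wild-type spleens in many rows.

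Part of the variation among spleens followed transcript length. In wild-type replicate 1, the median deviation of the longest transcripts (upper quartile, 4248 bases and over) was -0.08 and that of the shortest (lower quartile, 1826 bases and under) was 0.10 on the log2 scale. For members in those length classes the medians were also -0.08 and 0.10. Wild-type replicate 4 deviated the other way, with long transcripts above short ones by 0.11 for all transcripts and 0.13 for members. TTPΔARE replicate 2 deviated in the same direction, by 0.085 and 0.079, as did wild-type replicate 2, by 0.024 for all transcripts and 0.13 for members. Genes chosen after their values were seen show this: the long transcripts of Cnot1, Xrn1 and Smg1 were lowest or next to lowest in wild-type replicate 1, and the short Lsm4 and Lsm5 were highest there. Between genotypes, the median difference was -0.03 for the 13 shortest members by this criterion and -0.03 for the 17 longest.

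**Figure D5:**
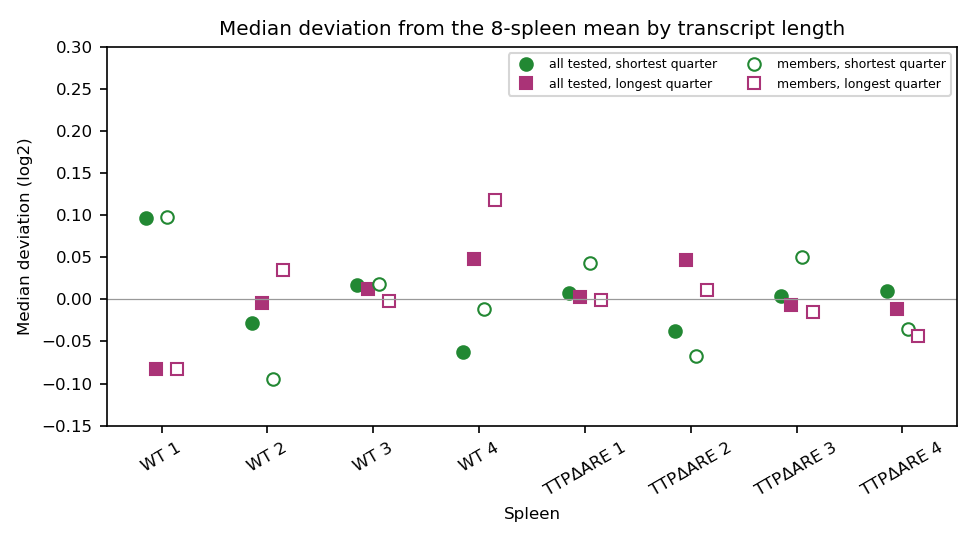
Median log2 deviation from the mean of the 8 spleens, for the shortest and longest transcripts (lower and upper length quartiles), in all tested transcripts (filled) and in members (open); each x position is 1 spleen. Wild-type replicate 1 shows short transcripts above long ones, and wild-type replicates 2 and 4 and TTPΔARE replicate 2 the reverse.

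The cell markers moved with the genotype, and the summed erythroid and B cell levels did not overlap between the genotypes, so effects of genotype and of marker level cannot be told apart in these 8 spleens. With the erythroid covariate limma called 0 of all tested transcripts (1291 at an unadjusted p under 0.05) and 0 of 53 members (4 at an unadjusted p under 0.05), and 14 members changed sign. With the B cell covariate it called 1 transcript (1522 at an unadjusted p under 0.05) and 0 members (7), and 23 members changed sign. Sign changes were not counted over all tested transcripts, so these counts cannot be read as particular to the members. The members' median SE was 0.115 and 0.148 with these covariates, against 0.070 without.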

How the data were processed

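RNA-seq of 8 mouse spleens was analysed from the deposited table of FPKM per RefSeq transcript, which the authors made. The submitters' processing notes name BWA and the build mm10. How fragments were assigned to transcripts, with which annotation, with or without strand and with what rule for multiple matches, is not given in the sources used here. Groups came from the genotype labels.

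FPKM are not counts, so limma 3.58.1 (R 4.3.3) was fitted to log2(FPKM + 0.5) with a variance trend, two-sided, for those 16608 of 23517 transcripts whose mean reached 0.5 FPKM, with Benjamini-Hochberg adjustment at 0.05. The code was tested on simulated data. No batch is labelled, and nothing beyond the labels says how the mice were housed or bred, so p-values measure the spread between these spleens. Low values (up to 0.5 FPKM) fall on steps that give the depth: at the best depth a share of 39.9 to 43.6% came out as whole fragments (tolerance 0.05), against 8.46 to 8.76% at the median of the depths tried. Most were not whole, so counts were not rebuilt.

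Members and lists were chosen with earlier results of these data known. All members may be named. Values in every sample are given for members that were called, did not overlap, belonged to a paralogue pair, or had the smallest p or highest mean of their complex; Zfp36 and other decay genes followed a like rule. Transcript lengths and 3′ UTRs came from GENCODE M21, and coordinates from RefSeq (GRCm38.p6). The heptamer count in the measured transcript's own 3′ UTR was chosen after seeing the data. Alternatives were pseudocounts of 0.1 and 1, other filters, scalings, variance models, sample weights, marker covariates, a threshold of 0.1, transcripts summed per symbol and leaving out each sample. Python 3.11.15 was used for tables and plots.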

Additional observations from a re-analysis of the deposited data

Results flagged for a closer look

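In 6 of 108 groups of 4 spleens (53 members and Cnot11, in each genotype), 1 spleen stood apart from the other three by Dixon's 95% criterion, and chance flags about 1 in 20. In wild-type, Cnot2 (a CCR4-NOT subunit) was at 5.86 FPKM in replicate 4 against 5.18 to 5.22 FPKM in the others, and Cnot3 was at 17.0 FPKM in replicate 1 against 19.1 to 19.2 FPKM. Cnot8 was at 16.7 FPKM in wild-type replicate 3 against 18.6 to 18.9 FPKM, and the exosome subunit Exosc2 at 8.75 FPKM in wild-type replicate 2 against 10.7 to 11.1 FPKM. In TTPΔARE replicate 4, Lsm5 was at 14.6 FPKM against 12.8 to 13.0 FPKM, and the exosome subunit Exosc7 was at 10.7 FPKM against 11.7 to 11.8 FPKM. None of these members was called by limma.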

How the results depend on the processing

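Against 664 called transcripts, 0 were called with the erythroid covariate, 1 was called with the B cell covariate, 1362 at a threshold of 0.1 and 198 to 725 when each spleen was left out. Of the 2 called members, 1 (Xrn2) passed without a filter, with quantile normalization or without a variance trend, 0 with either covariate, and 0 to 2 with each spleen left out: 0 when the spleen left out was wild-type replicate 4 or TTPΔARE replicate 3 or 4. A threshold of 0.1 or sample weights gave 3, with Ddx6 added. Other decay genes went from 0 calls to 1 with sample weights (Gigyf1), 2 at a threshold of 0.1 (Gigyf1 and Mphosph6) and 0 to 1 with each spleen left out. Zfp36 stood at 0.24 and 0.091 with the erythroid and B cell covariates (limma adjusted p = 0.721 and 0.891) and at 0.34 to 0.45 with each spleen left out. Members without overlap numbered 8 with median-of-ratios scaling, all lower (15.1%, against 6.87% of all tested transcripts lower and 12.6% in either direction). With each spleen left out they numbered 6 to 11 (11.3 to 20.8%, against 14.4 to 19.3% of all tested transcripts). Higher members then made up 1.89 to 7.55%, against 7.71 to 10.3% of all tested transcripts. Lower members made up 9.43 to 17.0%, against 6.67 to 9.25%. Among the 23 members named by rule, differences that changed sign with the erythroid covariate were Cnot6 0.038, Cnot6l 0.086, Cnot8 0.034, Pan3 0.045, Xrn1 0.013, Pabpc1 -0.011 and Pabpc4 -0.24, and with the B cell covariate Cnot6 0.20, Cnot6l 0.25, Cnot7 -0.091, Pan3 0.14, Dcp1a 0.10, Xrn1 0.39, Exosc10 0.0042, Pabpc4 -0.11 and Tob2 0.042. With each spleen left out, Cnot6 ran from -0.067 to 0.035, Pan3 from -0.061 to 0.012, Dcp1a from -0.076 to 0.012 and Xrn1 from -0.080 to 0.044. The cause of these changes was not tested. No paired analysis was possible because the labels give no replicate number or litter that the genotypes share.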
